A study of Mus musculus with 9 samples.

Results

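The glycolytic enzymes described here are 10 genes of the pathway that splits glucose into pyruvate and lactate. They were chosen by symbol, with earlier results of these data known. All 10 symbols were found among the 22036 genes of the deposited table. In pathway order they are Hk2, Gpi1, Pfkl, Pfkp, Aldoa, Tpi1, Pgk1, Pgam1, Pkm and Ldha. RNA sequencing was done on microglia, the resident macrophages of the brain, from female mice of the C57BL/6 strain, all wild-type and with no stated treatment. The ages were 6 months (young), 15 months (middle-aged) and 23 months (old). There were 3 libraries per age, and a library was made from cells of 3 mice, sorted by flow cytometry and pooled, so that the 9 mice of an age are seen as 3 pools. The series asks how gene expression in these cells differs with age.

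Glycolysis takes place in the cytosol. Hexokinase traps glucose as its phosphate, phosphofructokinase commits it to breakdown, aldolase splits the sugar, and the later enzymes harvest ATP and NADH on the way to pyruvate. Lactate dehydrogenase turns pyruvate into lactate and returns NAD+, which lets the pathway run on. Macrophages and microglia are known to raise glycolysis when they are activated, and many of these genes are textbook targets of the hypoxia-inducible factors.

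All 10 enzymes were higher in every old library than in every young one, by 1.17- to 1.52-fold between the group means. Of all genes tested, 12.2% were higher without overlap in this way. Tpi1 and Aldoa passed the test across all genes, 2 of 10 where 1.7% of genes did so as higher. The other 8 did not pass it after adjustment, and Pkm came nearest. The middle-aged means lay between the young and the old means for 10 of 10 enzymes, an order that 19.8% of genes shared. Medians of the other gene lists lay near 0, the tricarboxylic acid cycle among them. The other isoforms and steps of glycolysis itself were also such a list, with a median of -0.01 and 7 of 15 differences above 0. Among sugar transporters Slc2a6 rose in every fit that left out 1 library. Calls of Slc2a1 as higher and Slc2a5 as lower were made with all 9 libraries, where 2% of genes were called in either direction, and held in 0 and 2 of 9 such fits.

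Values are on the log2 scale of the authors' normalized counts, and 1 unit is a doubling of the deposited value. The transformation behind them is not stated. Their old-to-young differences fell below those of the authors' deposited table by unequal amounts, at 0.55 against 0.56 for Pfkl and 0.35 against 0.64 for Pgam1. Fold values here may thus be too small, and differences of enzymes at unlike levels may not compare. A gene was tested where it reached 3.32, or log2 of 10, in at least 3 libraries. That left 14955 genes, and 10 of 10 enzymes passed on their levels at every age. Differences were tested with limma, a linear model that shares information on spread between genes, and p-values were adjusted over all 14955 genes by the Benjamini-Hochberg method, with a threshold of 0.05. The read depth is unknown, since the deposited values hold no counts. In RNA from a whole sorted population, fewer cells of a type and less RNA per cell cannot be told apart. Old replicate 3 stood apart from the rest, at 29.9 on the first principal component of all tested genes, against -14.4 to 5.90 for the other 8 libraries, and its residual SD was 0.202 against 0.0717 to 0.149. Limma calls of enzymes and transporters between young and old are given with and without it, and marker results only with it.

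Promoters of 4 of the enzymes are shown first, because the pathway is known for shared control by hypoxia-inducible factors. The windows come from RefSeq on GRCm38.p6, run 5′ to 3′ in the direction of the gene, and span 250 bases before to 50 bases after a start site. Capitals mark each ACGTG or GCGTG on either strand, the core of the hypoxia response element, which reads CACGT or CACGC where it lies on the other strand. Tpi1 and Aldoa are the enzymes that passed the test, Pgk1 and Ldha are classic hypoxia targets. The windows are Tpi1 at chr6:124814109-124814408 (minus strand), Aldoa at chr7:126799205-126799504 (minus strand), Pgk1 at chrX:106186850-106187149 (plus strand) and Ldha at chr7:46845554-46845853 (plus strand).
Tpi1: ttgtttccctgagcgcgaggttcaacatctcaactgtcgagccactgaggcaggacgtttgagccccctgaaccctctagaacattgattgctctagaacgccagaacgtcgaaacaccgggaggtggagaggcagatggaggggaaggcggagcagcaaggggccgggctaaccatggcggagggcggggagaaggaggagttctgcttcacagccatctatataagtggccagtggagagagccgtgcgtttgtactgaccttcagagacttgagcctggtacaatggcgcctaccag
Aldoa: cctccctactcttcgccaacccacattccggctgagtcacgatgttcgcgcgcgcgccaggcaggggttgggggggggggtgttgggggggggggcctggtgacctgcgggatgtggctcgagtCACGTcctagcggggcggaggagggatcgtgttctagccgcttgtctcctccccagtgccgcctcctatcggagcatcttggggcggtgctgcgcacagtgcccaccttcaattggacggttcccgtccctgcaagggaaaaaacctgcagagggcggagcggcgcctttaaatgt
Pgk1: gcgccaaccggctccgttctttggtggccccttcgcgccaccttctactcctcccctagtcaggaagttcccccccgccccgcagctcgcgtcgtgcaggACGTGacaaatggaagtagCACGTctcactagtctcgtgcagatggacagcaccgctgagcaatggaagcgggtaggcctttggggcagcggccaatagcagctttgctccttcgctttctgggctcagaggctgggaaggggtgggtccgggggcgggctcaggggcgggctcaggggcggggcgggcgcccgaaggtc
Ldha: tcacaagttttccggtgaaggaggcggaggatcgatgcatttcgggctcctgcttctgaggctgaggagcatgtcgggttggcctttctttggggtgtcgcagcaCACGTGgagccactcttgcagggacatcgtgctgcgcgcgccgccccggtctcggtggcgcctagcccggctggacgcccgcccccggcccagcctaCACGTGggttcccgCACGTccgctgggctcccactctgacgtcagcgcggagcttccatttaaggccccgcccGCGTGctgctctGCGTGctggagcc
The Tpi1 window held no such core. The Aldoa window held 1, the Pgk1 window 2, and the Ldha window 7 matches counted on both strands. The palindrome CACGTG, the E-box that MYC and carbohydrate response factors bind, contains ACGTG on both strands and so counts as 2 of those matches each time. It occurred in the windows of 1 of 10 enzymes, Ldha, and in 8.09% of 27025 genes in the RefSeq table. Aldoa and Ldha also had windows that are not printed. Of these, the Aldoa window from 126800398 held 0 cores and that from 126799129 held 1, and the Ldha window from 46846832 held 2.

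Over all 14 windows of the 10 enzymes, 8 of 10 genes had an ACGTG or GCGTG core in at least 1 window, against 46.7% of all genes. A gene with more windows has more room for a match. By window it was 10 of 14, against 43.8% of 32851 windows. Gpi1 and Tpi1 had no such core. The GC box GGGCGG, which Sp1 binds, was found in 10 of 10 enzymes and in 38.2% of all genes. All 3 motif counts are descriptions of letters in these windows, and binding was not measured. A part of these motifs in the age differences was not tested. The genes set beside the enzymes were not matched for GC content or expression.

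**Figure D1:**
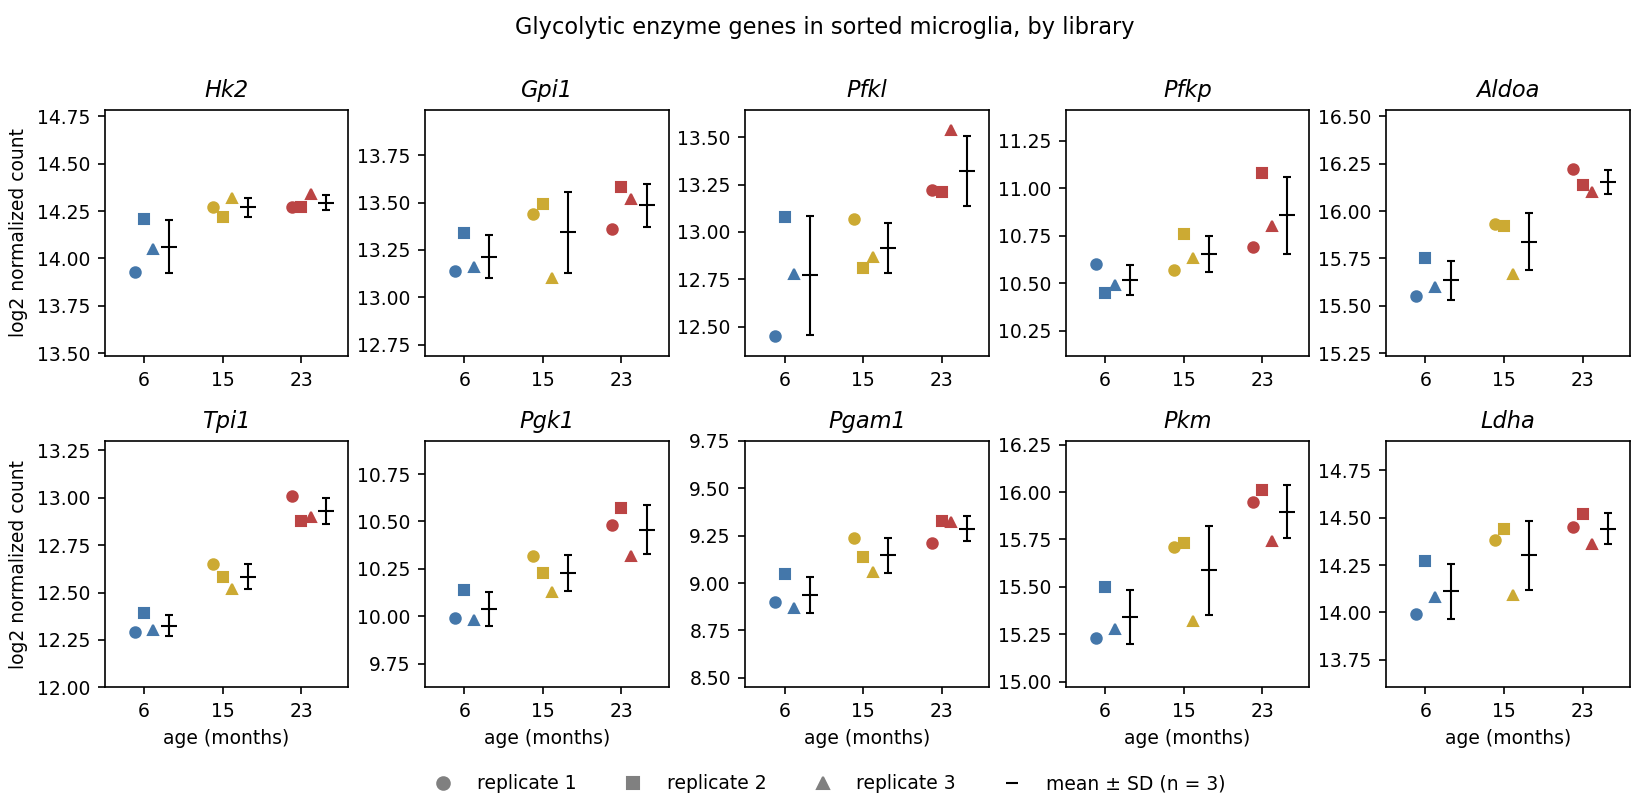
Log2 normalized count (y axis, a separate range per gene) of each glycolytic enzyme at 6, 15 and 23 months (x axis); points are libraries, shaped by replicate, and bars are the mean ± SD of 3 libraries. In each panel the 3 old points lie above the 3 young points, and for Tpi1 all 3 ages are apart.

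The preparatory steps start with hexokinase 2 (Hk2, chromosome 6, 82725025 to 82774454 on GRCm38, minus strand). Its young libraries read 13.93, 14.21 and 14.05, its middle-aged ones 14.27, 14.22 and 14.32, and its old ones 14.27, 14.27 and 14.34. The young libraries were the low ones, and both later ages lay above all of them. Hk2 was 1.17-fold higher in old than in young libraries (log2 0.23 ± 0.09 SE, n = 3 per group, Benjamini-Hochberg adjusted p from limma 0.217). Of that, 0.21 was present at 15 months and 0.02 was added between 15 and 23 months.

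Gpi1 (chromosome 7, 34201330 to 34230336, minus strand), the isomerase that makes fructose 6-phosphate, read 13.14, 13.34 and 13.16 in young libraries, 13.44, 13.49 and 13.10 in middle-aged ones and 13.36, 13.58 and 13.52 in old ones. The lowest old value, in replicate 1, nearly met the highest young one, in replicate 2, and middle-aged replicate 3 was below every young library. The old-to-young difference was 0.27 ± 0.12, a 1.21-fold higher mean, with a limma adjusted p of 0.281. It was the least certain of the 10 enzymes.

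Phosphofructokinase is the committing step, and its liver and platelet forms are among the 10. Pfkl (chromosome 10, 77986947 to 78010083, minus strand) read 12.45, 13.08 and 12.78 in young libraries, 13.07, 12.81 and 12.87 in middle-aged ones and 13.22, 13.21 and 13.54 in old ones. It was the most scattered of the enzymes in young libraries, with an SD of 0.313. The old mean was 1.47-fold higher (0.55 ± 0.16, limma adjusted p = 0.105). Without old replicate 3, the highest library, the difference was 0.45, with a limma adjusted p of 0.236. The middle-aged libraries lay within the young range.

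Pfkp (chromosome 13, 6579768 to 6648777, minus strand) read 10.60, 10.45 and 10.49 in young libraries, 10.57, 10.76 and 10.63 in middle-aged ones and 10.69, 11.08 and 10.80 in old ones. Old replicate 2 was the high library here. The old mean was 1.27-fold higher (0.34 ± 0.12, limma adjusted p = 0.176). Without old replicate 2 the old-to-young difference was 0.23, with a limma adjusted p of 0.289.

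Aldolase A (Aldoa, chromosome 7, 126795234 to 126800751, minus strand) splits fructose bisphosphate into triose phosphates. It read 15.55, 15.75 and 15.60 in young libraries, 15.93, 15.92 and 15.67 in middle-aged ones and 16.22, 16.14 and 16.10 in old ones. The 3 old libraries were above all 6 others, while middle-aged replicate 3 fell within the young range. Aldoa rose 1.43-fold from young to old (0.52 ± 0.09, limma adjusted p = 0.0206). Leaving out young replicate 1, young replicate 3 or old replicate 1 ended the call. Over the 9 fits that each left out 1 library the difference was 0.48 to 0.58 and the adjusted p 0.0117 to 0.127.

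Triosephosphate isomerase (Tpi1, chromosome 6, 124810586 to 124814296, minus strand) interconverts the triose phosphates so that both can go on. Its libraries read 12.29, 12.39 and 12.30 at 6 months, 12.65, 12.58 and 12.52 at 15 months and 13.01, 12.88 and 12.90 at 23 months. No library of one age overlapped another age, an order found for 1 of 10 enzymes and for 1.05% of the genes tested. Tpi1 rose 1.52-fold from young to old (0.61 ± 0.08, limma adjusted p = 0.00498), the largest difference of the 10 in log2 terms.

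Tpi1 stayed past the threshold in 9 of 9 fits that each left out 1 library, with a difference of 0.57 to 0.64 and a limma adjusted p of 0.00701 to 0.0438. It was also the enzyme called by the F test over the 3 ages (F = 26.2, limma adjusted p = 0.0168), 1 of 10 against 0.836% of all genes. Aldoa followed at an adjusted p of 0.0595 in that F test. Without young replicate 1, 2 or 3, or without old replicate 1, the F test called 0 of 10, and 0.341% to 0.455% of all genes.

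The steps that yield ATP follow. Phosphoglycerate kinase 1 (Pgk1, X chromosome, 106187100 to 106203699, plus strand) makes the first ATP of the pathway. It read 9.99, 10.14 and 9.98 in young libraries, 10.32, 10.23 and 10.13 in middle-aged ones and 10.48, 10.57 and 10.32 in old ones. The old mean was 1.34-fold the young mean (0.42 ± 0.11, limma adjusted p = 0.0743). In the authors' deposited table the log2 difference was larger, 0.63 with an adjusted p of 0.00557.

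Phosphoglycerate mutase 1 (Pgam1, chromosome 19, 41911923 to 41918660, plus strand) moves the phosphate for the next step. Its values were 8.90, 9.05 and 8.87 at 6 months, 9.24, 9.14 and 9.06 at 15 months and 9.21, 9.33 and 9.32 at 23 months. Both later ages lay above the young libraries, though middle-aged replicate 3 nearly met young replicate 2. The old mean was 1.27-fold higher (0.35 ± 0.10, limma adjusted p = 0.105). The authors' deposited table gives 0.64 for Pgam1 with an adjusted p of 0.0142.

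Pyruvate kinase (Pkm, chromosome 9, 59656368 to 59679375, plus strand) makes pyruvate and ATP, and its M1 and M2 forms come from alternative exons that a value per gene does not separate. It read 15.23, 15.50 and 15.28 in young libraries, 15.71, 15.73 and 15.32 in middle-aged ones and 15.95, 16.01 and 15.74 in old ones. The 3 old libraries were the highest of all 9, though old replicate 3 was only just above middle-aged replicate 2. The old mean was 1.47-fold higher (0.56 ± 0.13), with a limma adjusted p of 0.0535, just outside the threshold. It passed in 1 of 9 fits that left out a library, the one without middle-aged replicate 3, where the adjusted p was 0.0258.

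Lactate dehydrogenase A (Ldha, chromosome 7, 46841475 to 46855627, plus strand) reduces pyruvate to lactate. Its young libraries read 13.99, 14.27 and 14.08, its middle-aged ones 14.38, 14.44 and 14.09 and its old ones 14.45, 14.52 and 14.36. Middle-aged replicate 3 was within the young range and the other middle-aged libraries were at the old level. The old mean was 1.26-fold higher (0.33 ± 0.11, limma adjusted p = 0.167).

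For old against young the 10 enzymes were also read as a group beside all 14955 genes. The unadjusted p was under 0.05 with a higher old mean for 10 of 10, against 9.07% of all genes. All 10 differences were above 0, as were 47.4% of all tested. The 10 enzymes share the same 6 libraries, so these are not 10 separate observations. The enzymes were also chosen with earlier results of these data known, so such counts are descriptions and not independent support. Their differences ran from 0.23 to 0.61 with a median of 0.38, where the genes tested had a median of -0.01 and a 5th to 95th percentile range of -0.33 to 0.35. The lowest of the 10, Hk2, stood at the 89.4th percentile of all differences and Tpi1 at the 98.7th.

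In the authors' deposited table for this pair of ages, 7 of 10 enzymes had an adjusted p under 0.05 as higher, where 4.72% of 16152 genes did. The authors' deposited table gives Tpi1 a log2 difference of 0.79 (adjusted p = 1.47e-10), Aldoa 0.63 (4.21e-06) and Pkm 0.65 (0.000336). In the authors' deposited table Pfkl had 0.56 (adjusted p = 0.0475) and Ldha 0.39 (0.0449), both near the threshold. Hk2, Gpi1 and Pfkp, at the head of the pathway, did not pass it in the authors' deposited table, with 0.27 (adjusted p = 0.187), 0.33 (0.116) and 0.47 (0.0882). All 10 differences in the authors' deposited table were larger than those from the log2 values.

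**Figure D2:**
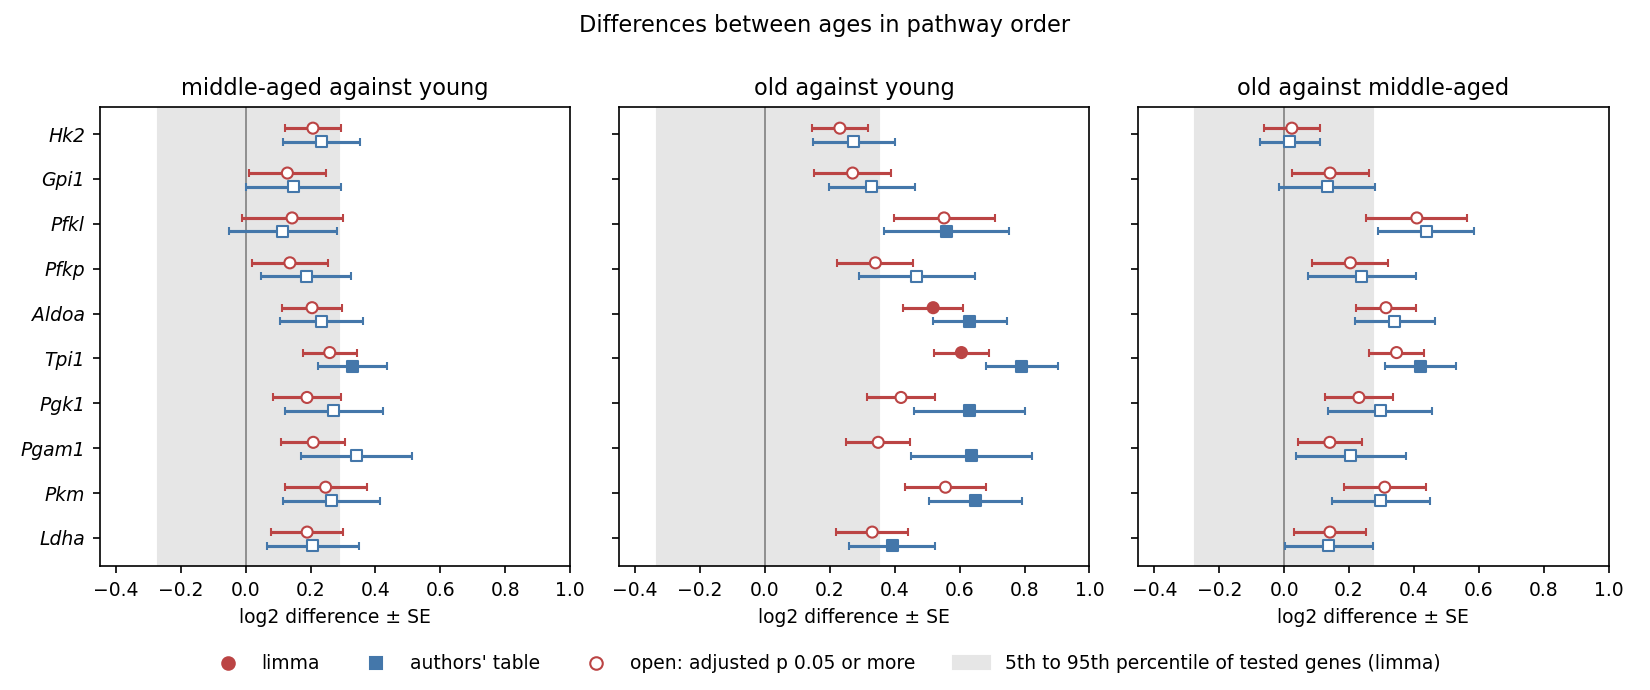
Log2 difference ± SE (x axis) of each enzyme (y axis, pathway order) in the 3 comparisons; circles are limma estimates, squares the authors' deposited table, filled where the adjusted p is under 0.05, and the grey band holds the 5th to 95th percentile of genes tested. In the old against young panel every estimate lies above 0, and Tpi1 has the largest at 0.61 by limma.

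At 15 months the enzymes were already above the young level by small amounts. Differences between middle-aged and young means ran from 0.13 for Gpi1 to 0.26 for Tpi1, with a median of 0.20. By limma 0 of 10 passed the adjusted threshold as higher, against 0.114% of all genes, and the adjusted p ran from 0.274 to 0.808. At an unadjusted p under 0.05 there were 3, Hk2, Aldoa and Tpi1, against 6.21% of all genes. The groups did not overlap for 3, Hk2, Tpi1 and Pgam1, against 11.6%. All 10 differences were above 0, as were 49.6% of all tested. In the authors' deposited table Tpi1, 1 of 10, passed at 0.33 with an adjusted p of 0.0403, against 3.26% of genes called higher there.

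Between 15 and 23 months the differences were of similar size but unevenly spread over the pathway. They ran from 0.02 for Hk2 to 0.41 for Pfkl, with a median of 0.22, and 10 of 10 were above 0, as were 48.5% of all tested. Pfkl, Aldoa, Tpi1 and Pkm had old libraries that were all above the middle-aged ones, 4 of 10 against 6.47% of genes, and the same 4 had an unadjusted p under 0.05, against 5.42%. By limma 0 of 10 passed after adjustment, against 0.16%, with adjusted p from 0.201 to 0.947. In the authors' deposited table Tpi1, 1 of 10, passed at 0.42 (adjusted p = 0.0175), against 0.859% of genes. The middle-aged and old comparisons share libraries with the old against young one, so they are not separate support for it.

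Whether the later step differed from the earlier one was tested directly in the same limma model. At an adjusted p under 0.05, 0 of 10 enzymes and 0% of the 14955 genes passed, and at an unadjusted p under 0.05 again 0 of 10 did, against 7.9% of genes. The largest such differences were 0.27 ± 0.27 for Pfkl, whose later step was the larger, and -0.18 ± 0.15 for Hk2, whose earlier step was the larger. A p that misses the threshold does not show that the steps were equal.

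**Figure D3:**
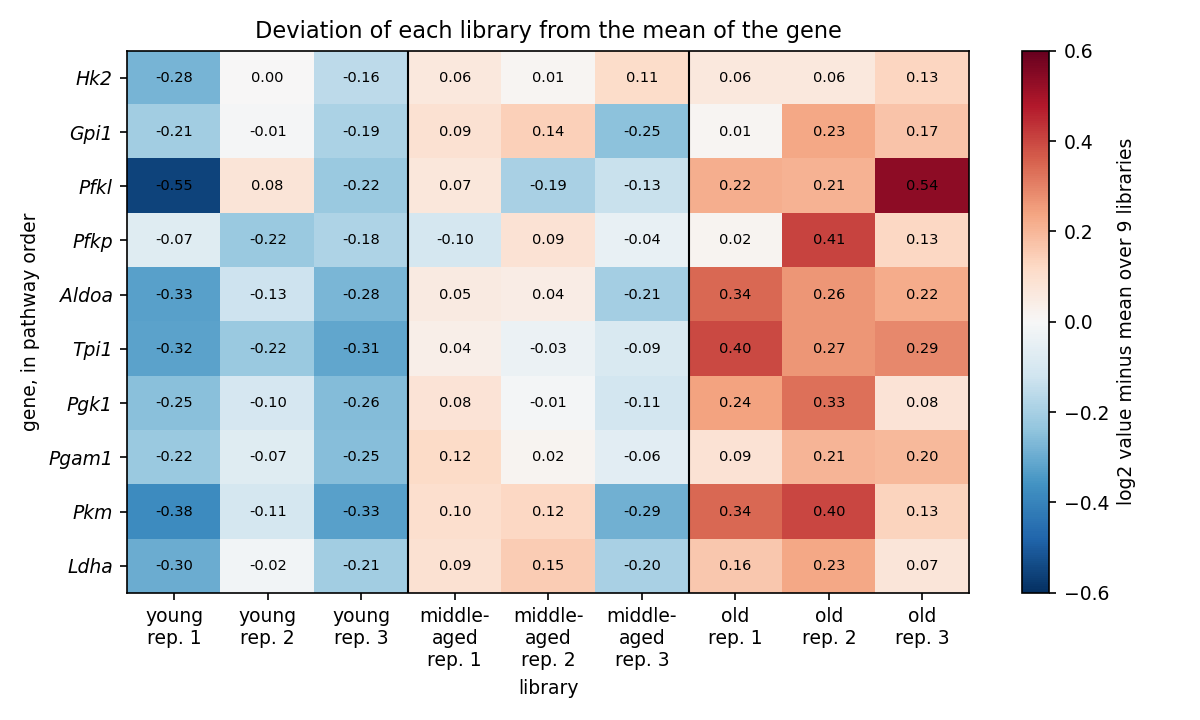
Deviation of each library (columns, by age and replicate) from the 9-library mean of each enzyme (in pathway order, top to bottom), in log2 units printed in the cells and coloured from blue (low) to red (high). Young columns are mostly blue, old columns are above 0 throughout, and middle-aged replicate 3 is low for 7 of 10 enzymes within its age.

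The enzymes also moved together between libraries of one age. Averaged over the 10, young replicates 1, 2 and 3 deviated from the gene means by -0.291, -0.0794 and -0.238, middle-aged ones by 0.0606, 0.0330 and -0.128, and old ones by 0.189, 0.260 and 0.194. Young replicate 2 was the highest young library for 9 of 10 enzymes, the exception being Pfkp. Middle-aged replicate 3 was the lowest of its age for 7 of 10, and old replicate 2 the highest of its age for 6 of 10. Old replicate 3, which stood apart over all genes, had a mean over the enzymes close to that of old replicate 1, with Pfkl as its high value. Without it Tpi1 had a difference of 0.62 (limma adjusted p = 0.0099) and Aldoa of 0.55 (0.0395), so the same 2 of 10 enzymes passed.

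As a description over 9 libraries, the 45 pairs of enzymes had a median Pearson correlation of 0.81, from 0.39 to 0.97, and the points share libraries and age groups. With the age means removed the median was 0.43, from -0.67 to 0.98, with 41 of 45 positive. The tested genes had a median near 0 on both bases (-0.0021 and -0.0007). The 5 other genes whose profiles were most like the mean profile of the 10 enzymes over the 9 libraries were Cacybp (Pearson 0.984), Ctsh (0.979), Rpl4 (0.979), Irf7 (0.974) and Plau (0.974). Cacybp encodes a calcyclin-binding protein, Ctsh the lysosomal protease cathepsin H, Rpl4 a ribosomal protein, Irf7 an interferon regulatory factor and Plau the urokinase plasminogen activator.

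The enzymes differed far more in level than with age. Levels are given per kilobase of the longest protein-coding transcript in GENCODE M21, as normalized counts averaged over 9 libraries. How reads shared with processed pseudogenes were counted is not known, so levels of several of these genes, Pgk1 and Pgam1 among them, are uncertain. Aldoa was the most abundant, at 39320 per kb with a range of 30983 to 49383, followed by Pkm at 20908 (15847 to 27068) and Ldha at 11083 (8951 to 12916). The ranges of these 3 did not overlap with each other or with the next.

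Below them came Tpi1 at 3960 per kb (3107 to 5134), Gpi1 at 3638 (3043 to 4243), Hk2 at 3447 (2824 to 3759) and Pfkl at 2249 (1505 to 3186). Neighbours in this stretch overlapped in range over the libraries. Within libraries, Tpi1, Gpi1 and Hk2 were each above Pfkl in 9 of 9, Gpi1 was above Hk2 in 8 of 9, Tpi1 above Hk2 in 7 of 9 and Tpi1 above Gpi1 in 5 of 9, so the order of Tpi1 and Gpi1 was not resolved. Pgk1 followed at 669 (553 to 833), then Pfkp at 398 (338 to 523) and Pgam1 at 316 (263 to 363), of which Pfkp and Pgam1 overlapped in range, with Pfkp the higher in 9 of 9 libraries. With the median length of the coding transcripts, 8 of 10 levels changed, and Gpi1 then stood at 18058 per kb and above Tpi1, Hk2 and Pfkl. Hk2 was then above Tpi1 and Pfkp above Pgk1 in 9 of 9 libraries, so these orders depend on the length used.

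Several steps have more than 1 enzyme gene, and 4 isoforms of the same steps outside the 10 are given next. The log2 values of Hk1, the housekeeping hexokinase, were 10.86, 10.95 and 10.81 in young and 11.02, 11.22 and 10.73 in old libraries (0.11 ± 0.14, limma adjusted p = 0.730), and the groups overlapped. Hk3, the myeloid hexokinase, had 14.21, 14.38 and 14.26 in young and 14.03, 14.19 and 14.11 in old libraries, all 3 old values lower (-0.17 ± 0.09, adjusted p = 0.342). Pfkm, the muscle form of phosphofructokinase, was lower without overlap, at 9.61, 9.53 and 9.53 against 9.29, 8.96 and 9.04 (-0.46 ± 0.12, adjusted p = 0.0897). Ldhb, the heart form of lactate dehydrogenase, had 15.32, 15.45 and 15.31 against 15.26, 15.16 and 15.19 (-0.16 ± 0.07, adjusted p = 0.311).

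By limma none of these 4 isoforms passed the threshold, and in the authors' deposited table Pfkm did, at -0.71 with an adjusted p of 0.00923. Per kilobase of the longest transcript, Hk3 stood at 5742, above Hk2 in 9 of 9 libraries, Hk1 at 438 and Pfkm at 218. With the median transcript length that order turned, with Hk2 at 6806, Hk3 at 6277 and Hk1 at 3222, and Hk3 was above Hk2 in 3 of 9 libraries. Ldhb, at 30538 by the longest transcript, exceeded Ldha in 9 of 9 libraries by either length.

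The balance between isoforms was read as a log2 ratio of levels per kb of the longest transcript within each library, for 6 pairs. Another length shifts a pair's ratios by the same amount in all libraries and leaves their difference between ages as it is. Hk2 over Hk3 was -1.06, -0.95 and -0.98 in young and -0.53, -0.69 and -0.55 in old libraries, so the ratio went from 0.501 to 0.664. Pfkl over Pfkm was 2.47, 3.18 and 2.88 in young and 3.56, 3.87 and 4.12 in old libraries, a ratio of 7.18 against 14.5. Ldha over Ldhb was -1.81, -1.66 and -1.71 in young and -1.28, -1.12 and -1.31 in old libraries, a ratio of 0.303 against 0.424. In these pairs the old libraries were all on the side of the listed enzyme.

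Aldoa over Aldoc, where Aldoc is the brain form of aldolase, was 6.04, 6.47 and 6.34 in young and 6.92, 7.0 and 6.88 in old libraries, again without overlap. Each of these 4 pairs had a two-sided exact permutation p of 0.1, the smallest that 3 against 3 libraries allow, and 0.15 after Benjamini-Hochberg adjustment over 6 pairs. For the pairs with Hk3, Pfkm and Ldhb this p was fixed by the values of the single genes. In each, the listed enzyme was higher and the other isoform lower without overlap, so the test adds nothing to those values. For Hk2 over Hk1 the exact permutation p was 0.8 and for Pfkl over Pfkp 0.6, and both pairs overlapped. A ratio shows unequal change of its 2 genes and not which of them changed.

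**Figure D4:**
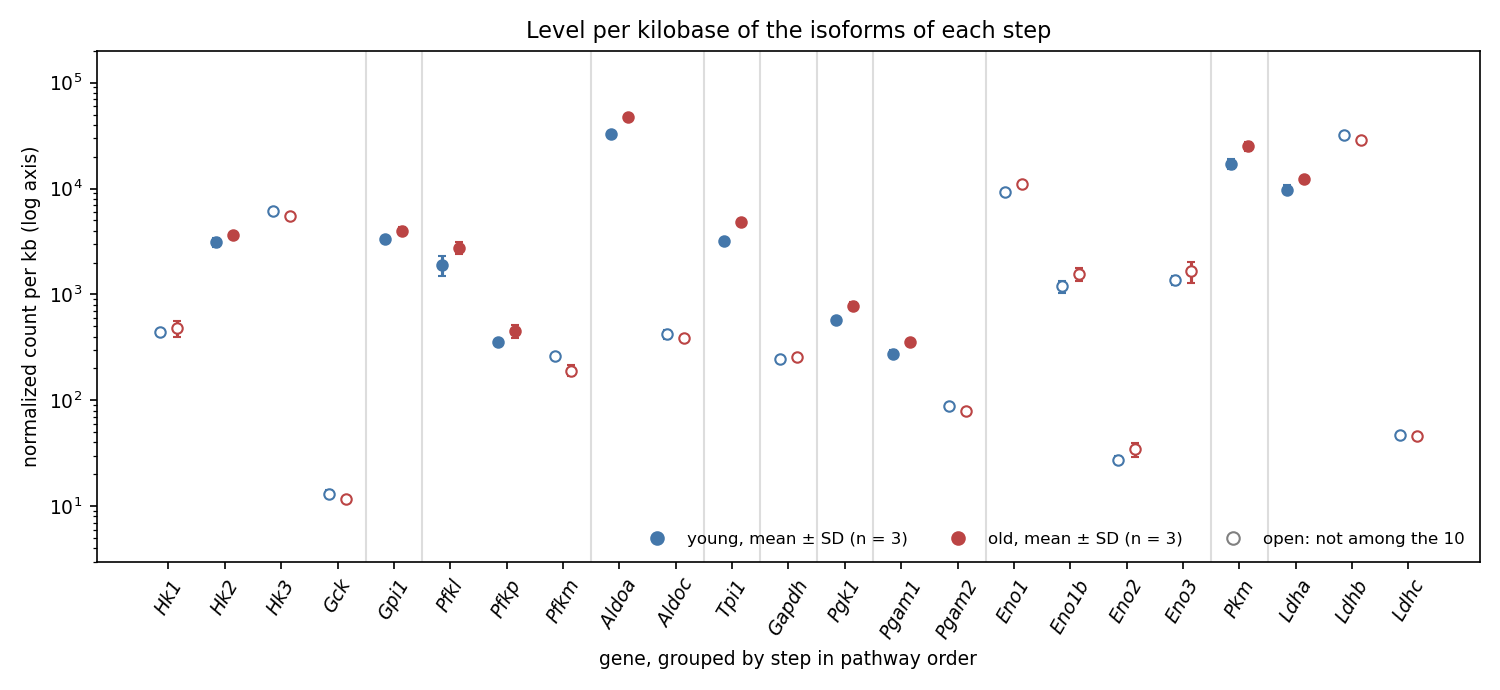
Normalized count per kilobase of the longest coding transcript (y axis, log scale) of the glycolytic isoforms (x axis, grouped by step), as mean ± SD of 3 young (blue) and 3 old (red) libraries; filled points are the 10 enzymes. Aldoa is the highest and Ldhb lies above Ldha; Hk3 lies above Hk2 with this length, an order that turns with the median transcript length.

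Glyceraldehyde-3-phosphate dehydrogenase (Gapdh) and enolase 1 (Eno1) complete the pathway and are named here after their values were seen. Gapdh, often taken as a reference gene, read 8.52, 8.44 and 8.36 in young and 8.57, 8.46 and 8.46 in old libraries, with overlap (0.06 ± 0.10, limma adjusted p = 0.789). Its level was 248 per kb of the longest transcript, below Pgam1 in 9 of 9 libraries, and 326 with the median length, where Pgam1 was at 316. Eno1 read 14.16, 14.25 and 14.15 in young and 14.49, 14.34 and 14.49 in old libraries, higher without overlap (0.26 ± 0.09, adjusted p = 0.184), and the authors' deposited table called it at 0.32 (adjusted p = 0.0439). Gapdh and several of the 10 enzymes, Pgk1, Ldha, Aldoa, Tpi1 and Pgam1 among them, have processed pseudogenes, and no source used here says how reads shared between copies were counted. Levels of these genes are uncertain to that extent.

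Among 15 tested genes of the other glycolytic isoforms and steps, 0 rose and 0 fell between young and old by limma, and their median difference was -0.01. At an unadjusted p under 0.05, 3 were higher and 2 lower. In the authors' deposited table Eno1, 1 of these 15, was called higher and Pfkm, 1 of 15, lower. Gapdhs, Pgk2, Pklr, Fbp2, Hif1a, Txnip and G6pdx, which belong to the lists given here, were not analysed here.

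Glucose enters through transporters of the Slc2a family, and among 11 tested genes of glucose and lactate transport 2 rose and 1 fell, with a median of 0.07. Slc2a6, a hexose transporter of lysosomes in macrophages, read 11.05, 11.09 and 10.86 in young, 11.48, 11.14 and 11.33 in middle-aged and 11.78, 11.72 and 11.90 in old libraries. Every old library was above every other. Slc2a6 rose 1.74-fold from young to old (0.80 ± 0.11, limma adjusted p = 0.00604) and passed in 9 of 9 fits that left out a library.

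Slc2a1, encoding the glucose transporter GLUT1, read 10.18, 10.55 and 10.42 in young and 10.97, 10.84 and 10.89 in old libraries, with no overlap. It rose 1.43-fold (0.51 ± 0.11, limma adjusted p = 0.0472), but passed in 0 of 9 fits that left out a library, where the adjusted p ran from 0.0544 to 0.187. Slc2a5, the fructose transporter GLUT5 and a known microglial marker, read 16.35, 16.55 and 16.42 in young and 16.06, 15.99 and 15.76 in old libraries. It fell to 0.706 of the young level (-0.50 ± 0.10, limma adjusted p = 0.0331) and passed in 2 of 9 such fits, those without middle-aged replicate 1 or 3. Without old replicate 3 its adjusted p was 0.0789 and that of Slc2a1 0.0854.

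The authors' deposited table called 3 transport genes higher, Slc2a1, Slc2a6 and Bsg, and 1 lower, Slc2a5. Bsg encodes basigin, the chaperone of the lactate transporters, and is named after its values were seen. By limma it had 0.61 ± 0.16 and an adjusted p of 0.0792.

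In the other branches no gene was called by limma. In control of glycolytic flux, with 13 genes tested, 0 rose and 0 fell and the median was -0.06. Pyruvate entry to the mitochondrion had 0 called of 13 (median 0.02), the pentose phosphate pathway 0 of 9 (-0.02), the glycogen, glycerol and serine branches 0 of 17 (-0.00398) and the tricarboxylic acid cycle 0 of 20 (-0.02). Over all 98 tested genes of these 7 lists, limma called 2 higher and 1 lower in old against young and 0 in either of the other comparisons. At an unadjusted limma p under 0.05 there were 12 higher and 10 lower in old against young, 2 and 7 in middle-aged against young and 10 and 3 in old against middle-aged. Called in the authors' deposited table were 6 higher and 3 lower in old against young, 0 and 3 in middle-aged against young and 2 and 0 in old against middle-aged. Named after their values were seen, the calls of the authors' deposited table in these other branches for old against young were Prkaa2, a subunit of AMP-activated kinase, at 0.72, Gpd2, the mitochondrial glycerol phosphate dehydrogenase, at 0.74, and Ppargc1a, a coactivator of mitochondrial genes, at -0.19. Ppargc1a lay just above the level needed for testing. It read 3.63, 3.74 and 3.64 in young libraries and 3.61 in each old library. Its limma difference was -0.06 ± 0.03 (adjusted p = 0.38), so its call rests on values near the low end. The tricarboxylic acid cycle genes spanned -0.21 to 0.15, below the lowest of the 10 enzymes at 0.23.

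**Figure D5:**
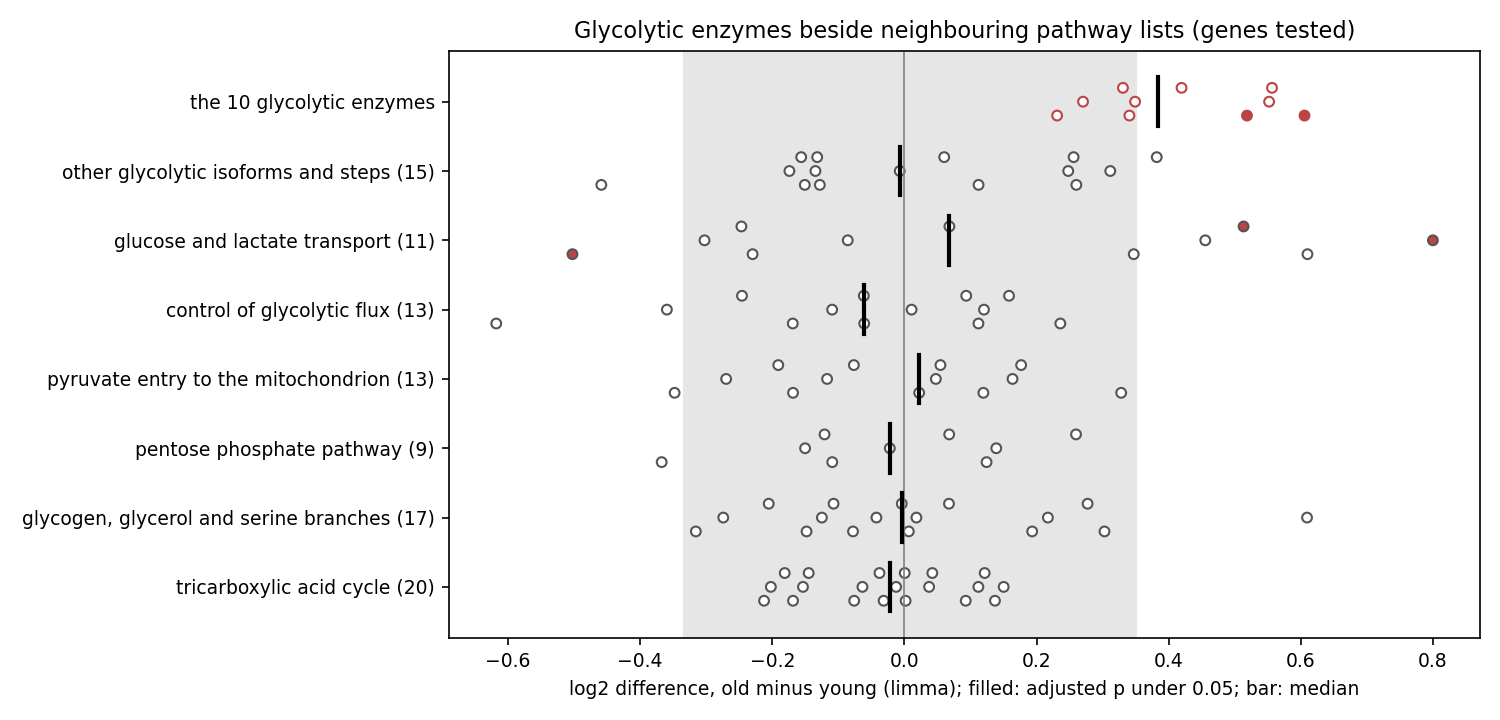
Log2 difference between old and young means (x axis, limma) of each tested gene in the 10 glycolytic enzymes and 7 neighbouring lists (y axis, number tested in brackets); filled points have an adjusted p under 0.05, black bars are medians and the grey band holds the 5th to 95th percentile of genes tested. The enzymes have a median of 0.38, and the other lists have medians from -0.06 to 0.07.

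The sorted cells were checked against markers of the labelled type and of others. Of 12 microglial markers 9 were in the table, and their summed normalized counts were 1680492 to 1925783 in young and 1383429 to 1593137 in old libraries, lower without overlap. Border macrophage markers (10 of 10 in the table) were also lower, at 124810 to 132042 against 82387 to 104939, and so was the sum of 6 astrocyte markers of 7 listed, at 20646 to 21992 against 16645 to 18545. That sum was mostly Slc1a3 (mean 17275), 0 of the 6 were called by limma, their median difference was -0.10, and Aldoc, which is among them, overlapped between ages. T and NK cell markers (8 of 8) were higher, at 1302 to 1554 against 1660 to 2163. Limma called the microglial marker Fcrls (-0.39 ± 0.09, adjusted p = 0.0494) and the border macrophage marker Stab1 (-0.40 ± 0.09, adjusted p = 0.0496) lower. Of the T and NK cell markers it called Cd8a higher (0.25 ± 0.05, adjusted p = 0.0440). No other marker of these lists was called, and the called ones are named after their values were seen. The part of these 4 groups of markers in the enzyme differences was not tested.

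Neutrophil markers (12 of 12) had sums that overlapped between young (320389 to 553622) and old (265070 to 538474) libraries. The highest neutrophil sum, 1047971, was in middle-aged replicate 2, whose mean deviation over the enzymes was 0.0330. Monocyte sums (8 of 8) overlapped too, at 54408 to 66861 in young and 54328 to 80373 in old libraries, but limma called 2 of the 8 markers higher, Plac8 (1.03 ± 0.18, adjusted p = 0.0223) and Ms4a4c (0.93 ± 0.18, adjusted p = 0.0327), and the list's median difference was 0.32. Of the endothelial and mural markers (7 of 7), Flt1 was called higher (1.29 ± 0.14, limma adjusted p = 0.00103), with a list median of 0.06. These called markers are named after their values were seen, and their part in the enzyme differences was not tested. Erythrocyte, B cell, neuron, oligodendrocyte and endothelial and mural marker sums overlapped between young and old libraries as well. Of the 8 oligodendrocyte markers, 1 was at a log2 value of 0 or less in all 9 libraries, and no other marker was.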

How the data were processed

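The authors' per-library table, deposited as normalized counts, holds values on a log2 scale for 9 libraries; no source used here states the transformation, and whole reads were not recovered, so the depth is unknown. Per the labels' protocols, an ultra-low-input library kit was used. The submitters' processing notes name the build mm10 (GRCm38) and, as the authors' tools, DESeq2 1.16.1, STAR 2.5.3, cutadapt 1.13 and CASAVA, with no roles. The authors' deposited comparison tables give a mean signal per gene, a log2 fold change, p-values before and after adjustment, and scores (a standard error and a test statistic), per the file headers.

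The log2 values were used as deposited. Genes at 3.32 (log2 of 10) or more in at least 3 libraries, 14955 of 22036, were fitted with limma 3.58.1 in R 4.3.3, with the 3 ages as groups and a variance trend. Tests were two-sided with Benjamini-Hochberg adjustment over all genes tested and a threshold of 0.05. Isoform ratios were compared by two-sided exact permutation tests. The procedure was tested on simulated data with known changes. Levels per kilobase are 2 to the power of the value, divided by transcript length from GENCODE M21. Positions come from the same annotation and promoters from RefSeq on GRCm38.p6. Figures were drawn with matplotlib 3.10.9 in Python.

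The enzymes, pathway lists and markers were chosen with earlier results of these data known. All 10 enzymes were named with their values, and from each other list up to 4 genes, those called by limma and the isoforms of a listed enzyme's own step; 5 further genes were named for the likeness of their profiles. Gapdh, Eno1, Aldoc, Bsg, Prkaa2, Gpd2, Ppargc1a and single marker genes were named after their values were seen. The labels do not say that same-numbered libraries of different ages are paired. Correlations of their deviations were -0.242 to 0.234, and the numbers were used as a block only as an alternative. Alternatives covered a pseudocount, filters, scaling, the variance trend, library weights, the replicate number, fits of 2 ages alone, the transcript length and leaving out each library. No per-sample column was left unused. That same-age libraries are separate pools of mice comes from the labels' protocols; n = 3 per age limits the precision.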

Additional observations from a re-analysis of the deposited data

How the results depend on the processing

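Of 190 repeats for old against young (10 enzymes under 19 alternatives), 172 kept direction and side of the threshold, 15 newly passed, 3 no longer passed and 0 changed sign. The 2 of 10 enzymes called there stood beside 2% of all genes called in either direction. With library weights estimated by limma 7 enzymes were called, beside 10.8% of all genes. In the authors' deposited table it was also 7, beside 7.62%. Between middle-aged and young, 1 of 10 was called in the authors' deposited table, beside 5.78% of all genes, against 0 and 0.114% by limma. Between old and middle-aged it was 1 of 10, beside 1.32%, against 0 and 0.174%. The F test, with 1 of 10 and 0.836% of all genes, called 2 after quantile normalization, where 0.97% of all genes passed. It called 6 with library weights, where 8.53% of all genes passed, and 0 with the replicate number as a block (0.535%). Leaving out 1 library gave 1 to 3 enzymes for old against young (0.562% to 2.15% of all genes) and 0 to 2 for the F test (0.341% to 0.943% of all genes). Over all tested genes, old against young gave 299 calls, 1609 with library weights, 1230 in the authors' deposited table, 185 with the block and 84 to 322 without 1 library.

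With the replicate block, 3 of 10 enzymes passed in old against young, beside 1.24% of all genes, as Pkm came to a limma adjusted p of 0.0297. The labels do not say that equal replicate numbers pair the libraries. Signs turned for Pfkl between middle-aged and young without young replicate 1 (-0.0155 against 0.14, with 0.298 as the highest when another library was left out), for Hk2 between old and middle-aged without middle-aged replicate 2 (-0.00203 against 0.02, highest 0.0475) and for Hk1 between old and young without old replicate 2 (-0.00172 against 0.11, highest 0.243). The cause was not tested. As the depth is unknown, no limit from read counting can be given.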
